A study of Mus musculus with 12 samples.

Results

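Tetraspanins are small membrane proteins that assemble with one another and with partner proteins into patches of the cell surface and of endosomes. The 10 tetraspanin genes described here (*Tspan13*, *Tspan14*, *Tspan31*, *Cd9*, *Cd37*, *Cd53*, *Cd63*, *Cd81*, *Cd82* and *Cd151*) were picked by gene name among the 52636 genes in each of 2 count tables, and all 10 were found in both tables. They were chosen with the response of neutrophils and macrophages to CGRP already known, so that their response to CGRP is given below as a description. Where a member is said to be called with CGRP, this marks its place in the fit over all genes and is not evidence of a response. The rule sets no cut on a measured value. Their difference between resting neutrophils and resting macrophages is not named in the rule and was tested. Earlier results of these data were known when the genes were chosen, and whether that difference was among them is not given.

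A tetraspanin crosses the membrane several times, has no known enzymatic activity and acts by holding other proteins in place, among them integrins, immunoglobulin-like adhesion proteins, membrane proteases and antigen-presenting molecules. Some members sit mainly at the surface of leukocytes, where they affect adhesion, migration and cell fusion, whereas others cycle through late endosomes and are carried out of the cell on exosomes. In neutrophils, the membrane of primary granules holds CD63, which reaches the surface when the granules are released.

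The study asked how CGRP, a neuropeptide released by nociceptive sensory neurons, acts on myeloid cells. RNA was sequenced from neutrophils isolated from the bone marrow of wild-type C57BL/6 J mice aged 8 to 12 weeks, and from monocytes of the same source that were grown for 3 days with 10 ng/ml of M-CSF, which turns monocytes into macrophages. Each cell type was kept for 4 h with 1 nM CGRP or with saline (PBS), giving 4 groups of 3 libraries. No group carried a genetic change, and all were cultured with serum and antibiotics. The neutrophils were freshly isolated and kept in RPMI, with no M-CSF named for them, whereas the macrophages had grown in DMEM/F12 with it, so that cell type and culture cannot be told apart. Neither the labels nor the methods used here state whether libraries of a group came from separate mice, so the spread between them may be technical. The libraries held from 2719556 to 3631989 counts (median 3299174) in PBS neutrophils and from 2196558 to 3270388 (median 3269709) in CGRP neutrophils. They held from 2536415 to 3477069 (median 3379068) in PBS macrophages and from 2002559 to 3259073 (median 2692858) in CGRP macrophages. A floor of 3 counts in a library corresponds to a level, in counts scaled to library size (CPM), of 0.826 to 1.5, which covers counting error only.

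The labels were checked against marker genes. All 10 neutrophil markers, such as *S100a8*, were higher in the PBS neutrophils, and all 10 macrophage markers, such as *C1qb*, were higher in the PBS macrophages (each called in limma-voom). CGRP raised *Thbs1*, which encodes the matrix protein thrombospondin-1, in neutrophils (log2 fold change 2.39, SE 0.12, limma-voom adjusted p = 6.07e-11) and in macrophages (log2 fold change 5.02, SE 0.19, adjusted p = 1.43e-10). *Ramp3*, which encodes a receptor activity-modifying protein, rose in both cell types as well, by 2.52 on the log2 scale in neutrophils (SE 0.38, limma-voom adjusted p = 3.27e-04) and by 4.18 in macrophages (SE 0.43, adjusted p = 9.19e-06). *Crem*, which cyclic AMP induces, rose in macrophages by 3.68 (SE 0.19, limma-voom adjusted p = 5.40e-09), as did *Nr4a1* by 1.00 (SE 0.22, adjusted p = 9.96e-03, lost without PBS macrophage replicate 1, where the value was 0.96). In neutrophils, the log2 fold changes were 0.81 for *Crem* (SE 0.23, adjusted p = 0.0692) and −0.06 for *Nr4a1* (SE 0.21, adjusted p = 0.947), which did not pass the test.

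The 10 tetraspanin transcripts were detected in every library, from 40 counts for *Cd151* in a CGRP neutrophil library to 16396 counts for *Cd63* in a PBS macrophage library. Levels are given as CPM scaled by TMM, which corrects for differences in library composition, and each gene is compared between groups only, since the values are not scaled to transcript length. Differences between groups are given as log2 fold changes from limma-voom with their standard error (SE), and a gene is called where its adjusted p, corrected over all genes tested, is under 0.05. The longest annotated proteins of the 10 genes have between 204 residues (*Tspan13*) and 303 residues (*Cd37*).

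**Figure D1:**
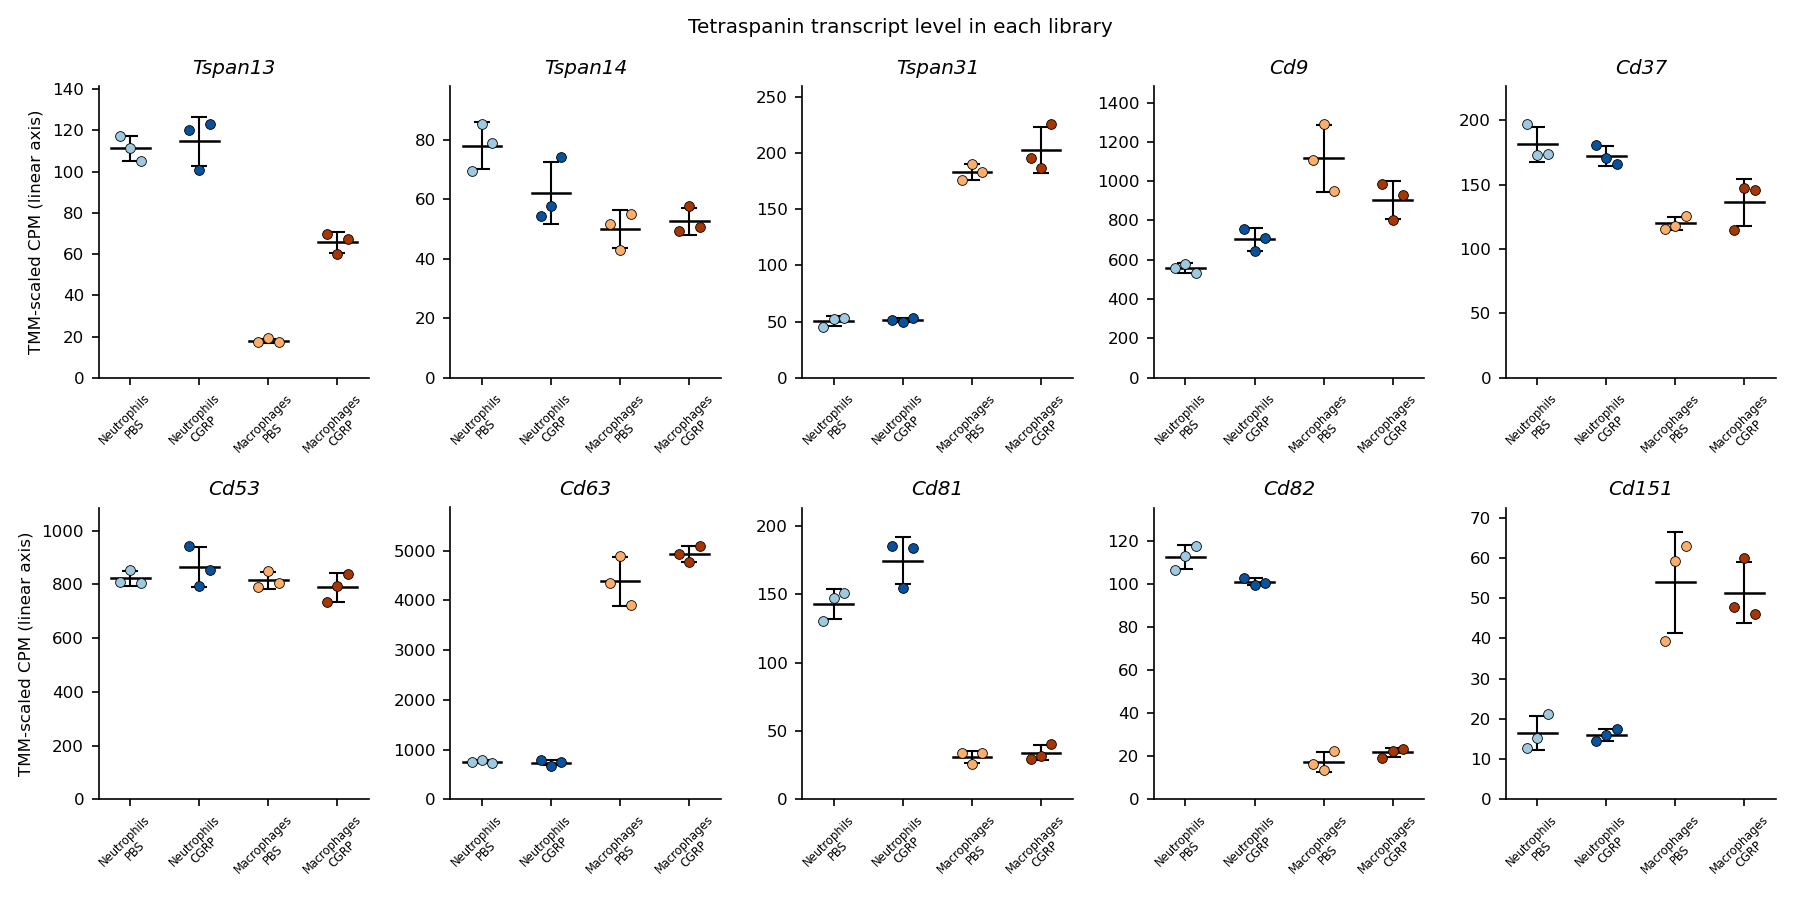
Level of each tetraspanin transcript in TMM-scaled CPM (linear axes that start at 0) in the 12 libraries, with 3 points per group for the libraries, a horizontal line for the mean and a bar for the SD. *Tspan13*, *Cd81* and *Cd82* sit high in neutrophils and *Cd63*, *Tspan31* and *Cd151* sit high in macrophages, with all libraries of one cell type apart from those of the other, and *Tspan13* is the gene whose macrophage libraries separate by treatment.

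In the absence of CGRP, 9 of the 10 tetraspanins differed between neutrophils and macrophages, with 5 higher in neutrophils (*Cd82*, *Tspan13*, *Cd81*, *Tspan14* and *Cd37*) and 4 higher in macrophages (*Cd63*, *Tspan31*, *Cd151* and *Cd9*). The differences ran from 1.51-fold for *Cd37* to 6.61-fold for *Cd82*. Among all 10186 genes tested in this comparison, 68.5% were called, 35.5% as higher in neutrophils and 33.0% as higher in macrophages, so that a call is common between these cells. The 9 calls held under each of 10 alternative analyses and without each of the 6 libraries in turn. The median over the 10 genes was 0.31, beside 0.03 over all genes tested. Since RNA came from bulk samples, fewer expressing cells and less RNA per cell cannot be told apart.

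*Cd82*, *Cd81*, *Cd9* and *Cd151* encode surface tetraspanins that bind integrins and immunoglobulin-like proteins and act in adhesion and migration. *Cd82* (ENSMUSG00000027215, chr2:93419111-93463140, minus strand, GRCm38), first described as a suppressor of metastasis, reached 107, 113 and 118 CPM in the 3 PBS neutrophil libraries and 16.6, 13.4 and 22.6 CPM in the 3 PBS macrophage libraries. The neutrophil libraries were all several times above the macrophage libraries, and the log2 fold change of neutrophils against macrophages was 2.72 (SE 0.18, limma-voom adjusted p = 1.58e-10). *Cd81* (ENSMUSG00000037706, chr7:143052739-143067934, plus strand), a common exosome protein, reached 131, 147 and 151 CPM in PBS neutrophils and 33.7, 25.7 and 33.7 CPM in PBS macrophages. Its log2 fold change was 2.21 (SE 0.15, limma-voom adjusted p = 2.17e-10), again with no overlap between the cell types.

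The other members of this group had the opposite order. *Cd9* (ENSMUSG00000030342, chr6:125460266-125494791, minus strand), which acts in gamete and macrophage fusion and binds the immunoglobulin-like proteins encoded by *Igsf8* and *Ptgfrn*, was at 558, 581 and 531 CPM in PBS neutrophils and at 1108, 1290 and 950 CPM in PBS macrophages. The lowest macrophage library was well above the highest neutrophil library, and the log2 fold change was −0.99 (SE 0.12, limma-voom adjusted p = 5.60e-07), or 1.99-fold higher in macrophages. *Cd151* (ENSMUSG00000025510, chr7:141467392-141471473, plus strand), which binds laminin-binding integrins, had the fewest counts of the 10 in neutrophils, with 41 to 59 counts per PBS neutrophil library and 138 to 198 per PBS macrophage library. Its mean level was 16.4 ± 4.29 CPM in neutrophils and 53.9 ± 12.6 CPM in macrophages (SD, n = 3), which is a log2 difference of −1.71 (SE 0.23, limma-voom adjusted p = 2.26e-06). *Polr2l* ends within 1000 bases of the 3′ end of *Cd151* on the opposite strand, with up to 164 counts in a library, and whether its reads reached the *Cd151* count was not tested.

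*Cd37* and *Cd53* are restricted to leukocytes. *Cd37* (ENSMUSG00000030798, chr7:45233632-45239115, minus strand), a tetraspanin of B cells and myeloid cells, was at 197, 173 and 174 CPM in PBS neutrophils and at 115, 118 and 126 CPM in PBS macrophages. The groups did not overlap and the log2 fold change of 0.60 (SE 0.12, limma-voom adjusted p = 1.59e-04) was the smallest of the 9 called. *Cd53* (ENSMUSG00000040747, chr3:106759921-106790149, minus strand), found on most leukocytes, was the exception among the 10. It reached 823 ± 27.1 CPM in PBS neutrophils and 815 ± 31.6 CPM in PBS macrophages (SD, n = 3), with overlapping libraries and a log2 fold change of 0.02 (SE 0.10, limma-voom adjusted p = 0.889). With libraries scaled by their totals alone the sign was the opposite (−0.08).

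*Cd63* (ENSMUSG00000025351, chr10:128900989-128912822, plus strand) encodes the tetraspanin of late endosomes, lysosomes, granules and exosomes. Its level was 747, 795 and 726 CPM in PBS neutrophils and 4345, 4897 and 3906 CPM in PBS macrophages. This was the largest difference in favour of macrophages among the 10, at a log2 fold change of −2.53 (SE 0.11, limma-voom adjusted p = 4.57e-13), or 5.76-fold. Its pseudogene *Cd63-ps* shares 66.9% of the 31-base sequences in the last 500 bases of the *Cd63* transcripts, near which the libraries were primed. The pseudogene had at most 78 counts in a library beside at least 1731 for *Cd63*, and how reads were divided between them was not tested.

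*Tspan14* belongs to the TspanC8 subgroup, whose members escort the protease ADAM10 out of the endoplasmic reticulum. It (ENSMUSG00000037824, chr14:40906445-40966807, minus strand) was at 78.0 ± 7.86 CPM in PBS neutrophils and 49.98 ± 6.27 CPM in PBS macrophages (SD, n = 3), which is a log2 difference of 0.65 (SE 0.14, limma-voom adjusted p = 5.33e-04). *Tspan13* (ENSMUSG00000020577, chr12:36014557-36042500, minus strand), a little-studied member described as a partner of a neuronal calcium channel, was at 117, 112 and 105 CPM in PBS neutrophils and at 17.4, 19.1 and 17.2 CPM in PBS macrophages. The macrophage values lay close together and far below those of neutrophils, and the log2 fold change was 2.63 (SE 0.16, limma-voom adjusted p = 5.37e-11), or 6.17-fold.

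*Tspan31* (ENSMUSG00000006736, chr10:127067280-127070264, minus strand), first known as a gene amplified in sarcoma, ran the other way. It was at 45.6, 52.6 and 53.1 CPM in PBS neutrophils and at 176, 191 and 183 CPM in PBS macrophages (log2 fold change −1.86, SE 0.13, limma-voom adjusted p = 2.64e-10). Its last 500 bases are fully complementary to exons of *Cdk4*, a cell cycle kinase gene on the opposite strand that overlaps it by 641 exonic bases. The strand setting of the counting is not given in the sources used here, so reads of *Cdk4*, which had up to 576 counts in a library, and reads of *Tspan31* cannot be told apart. *Cdk4* was also higher in PBS macrophages, by a smaller log2 fold change (−0.56, SE 0.14, limma-voom adjusted p = 1.46e-03).

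A further 21 genes of the family were listed for comparison. Of these, *Tspan1*, *Tspan11* and *Prph2* had no count in any of the 12 libraries, which allows a level of up to 1.5 CPM, and 9 others had at most 4 counts in a library. The remaining 9 could be tested in at least 1 comparison. In PBS, 8 were tested and all 8 were called in limma-voom, 4 in each direction, beside 68.5% of all genes tested. Higher in neutrophils were *Tspan32*, a leukocyte tetraspanin (log2 fold change 3.76, SE 0.23, limma-voom adjusted p = 7.17e-11), *Tspan33* (1.96, SE 0.39, adjusted p = 2.12e-04) and *Tspan5* (0.70, SE 0.27, adjusted p = 0.0293). *Tspan2* was also called higher in neutrophils, where it had 33, 32 and 48 counts, against 4, 0 and 0 counts in the PBS macrophages, too few for a fold change.

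Higher in macrophages were *Tspan4*, a component of the retraction fibres of migrating cells (−4.12, SE 0.19, limma-voom adjusted p = 1.09e-12), *Tspan3* (−3.05, SE 0.19, adjusted p = 8.28e-11), *Tspan17* (−2.56, SE 0.31, adjusted p = 6.39e-07) and the photoreceptor gene *Rom1* (−1.05, SE 0.41, adjusted p = 0.0313). *Rom1* was low, with between 5 and 14 counts in these libraries. The calls of *Tspan5* and *Rom1* were lost in some analyses. *Rom1* was not called in DESeq2 (adjusted p = 0.107) or with no filter on low counts (limma-voom adjusted p = 0.0580), nor *Tspan5* with library totals (limma-voom adjusted p = 0.0989). *Tspan5* lost its call without neutrophil replicate 1 (0.58), neutrophil replicate 3 (0.56), macrophage replicate 1 (0.68) or macrophage replicate 2 (0.55). *Rom1* lost it without neutrophil replicate 1 (−1.16), replicate 2 (−0.90) or replicate 3 (−1.03) or macrophage replicate 1 (−1.03). Within the TspanC8 subgroup, *Tspan14* and *Tspan33* were thus higher in neutrophils and *Tspan17* in macrophages, *Tspan5* was higher in neutrophils with a call that was not firm, and *Tspan10* and *Tspan15* had too few counts to be tested.

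**Figure D2:**
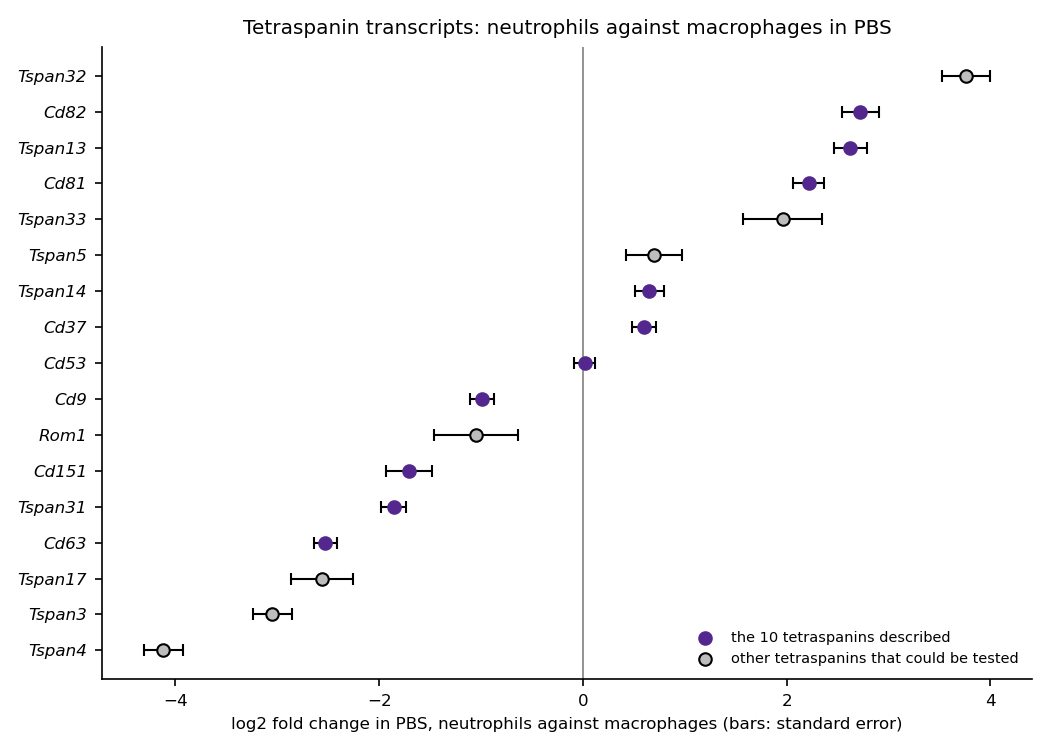
Difference of tetraspanin transcripts between PBS neutrophils and PBS macrophages, as a log2 fold change on the x axis (positive: higher in neutrophils) with the SE as bars, for the 10 tetraspanins (purple) and 7 further family members (grey). The values spread from −4.12 for *Tspan4* to 3.76 for *Tspan32*, and the bar of *Cd53* alone crosses 0.

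The levels of the 10 tetraspanins with CGRP were then set beside those with PBS. In macrophages, *Tspan13* was the only one of the 10 called (higher with CGRP), beside 7.43% of the 9393 genes tested called in either direction and 3.46% called higher. In neutrophils, *Cd9* was the only one called (higher with CGRP), beside 2.53% of 9819 genes in either direction and 1.51% higher. Since the 10 genes were selected with these values known, nothing is read from either count. No member was called lower with CGRP in limma-voom, whereas voomWithQualityWeights, a limma variant that weights libraries, called *Cd9* lower in macrophages.

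*Tspan13* was at 17.4, 19.1 and 17.2 CPM in the PBS macrophage libraries and at 69.97, 60.02 and 67.2 CPM in the CGRP macrophage libraries. In counts, these were 61, 64 and 48 with PBS and 224, 163 and 134 with CGRP. Every CGRP library was far above every PBS library, and the log2 fold change was 1.87 (SE 0.18), or 3.65-fold. Without each of the 6 libraries in turn, the log2 fold change lay between 1.81 and 1.94. In neutrophils, where *Tspan13* was high to begin with, it was at 117, 112 and 105 CPM with PBS and at 120.1, 101 and 123 CPM with CGRP, overlapping groups with a log2 fold change of 0.04 (SE 0.10). The order of the 4 groups was therefore CGRP neutrophils (115 ± 12 CPM), PBS neutrophils (111 ± 6.02), CGRP macrophages (65.7 ± 5.13) and PBS macrophages (17.9 ± 1.04; SD, n = 3), in which the neutrophil groups overlapped and the others did not.

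*Cd9* was at 558, 581 and 531 CPM in PBS neutrophils and at 756, 643 and 711 CPM in CGRP neutrophils. The lowest CGRP library was above the highest PBS library, and the log2 fold change was 0.35 (SE 0.08), or 1.27-fold. The call was not firm. It was lost without PBS replicate 1 (log2 fold change 0.35), PBS replicate 2 (0.37), PBS replicate 3 (0.31), CGRP replicate 1 (0.30) or CGRP replicate 3 (0.33), and it held without CGRP replicate 2 (0.40). It was also lost in a single fit over all 12 libraries, where 137 genes were called in neutrophils.

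In macrophages, *Cd9* ran the other way, at 1108, 1290 and 950 CPM with PBS and at 988, 801 and 927 CPM with CGRP. One CGRP library was above the lowest PBS library, and the log2 fold change of −0.29 (SE 0.14) was not called. With CGRP, the *Cd9* levels of the cell types thus lay closer, at 703 ± 57.0 CPM in neutrophils and 905 ± 95.5 CPM in macrophages (SD, n = 3), although the groups still did not overlap.

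The other 8 members were not called in either cell type. In neutrophils, *Cd81* was at 131, 147 and 151 CPM with PBS and at 186, 155 and 184 CPM with CGRP, and *Cd82* was at 107, 113 and 118 CPM with PBS and at 103, 99.8 and 101 CPM with CGRP. Neither pair of groups overlapped, with log2 fold changes of 0.29 for *Cd81* (SE 0.10) and −0.14 for *Cd82* (SE 0.10). With *Cd9*, this made 3 of 10 members whose neutrophil groups did not overlap, beside 17.6% of all genes tested. *Tspan14* had a log2 fold change of −0.35 (SE 0.13) in neutrophils, as large as that of *Cd9* in the other direction, but CGRP replicate 3 (74.2 CPM) lay within the PBS range of 69.7 to 85.3 CPM.

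In macrophages, *Tspan13* was the 1 member of 10 whose groups did not overlap, beside 24.1% of all genes tested. *Cd82* had the next largest log2 fold change (0.35, SE 0.23), from 17.5 ± 4.64 CPM with PBS to 21.8 ± 2.18 CPM with CGRP (SD, n = 3). *Cd63*, at 4383 ± 497 CPM with PBS and 4936 ± 165 CPM with CGRP, had one of 0.18 (SE 0.12). Those of *Cd37* (0.17, SE 0.14), *Tspan31* (0.14, SE 0.13), *Cd81* (0.11, SE 0.19), *Tspan14* (0.09, SE 0.16), *Cd151* (−0.03, SE 0.19) and *Cd53* (−0.05, SE 0.12) were of the size of their errors. In neutrophils, the same held for *Cd53* (0.08, SE 0.08), *Tspan31* (0.04, SE 0.12), *Cd151* (0.01, SE 0.21), *Cd63* (−0.03, SE 0.08) and *Cd37* (−0.06, SE 0.09). The median over the 10 members was 0.02 in neutrophils and 0.13 in macrophages, beside 0.00 in both over all genes tested.

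**Figure D3:**
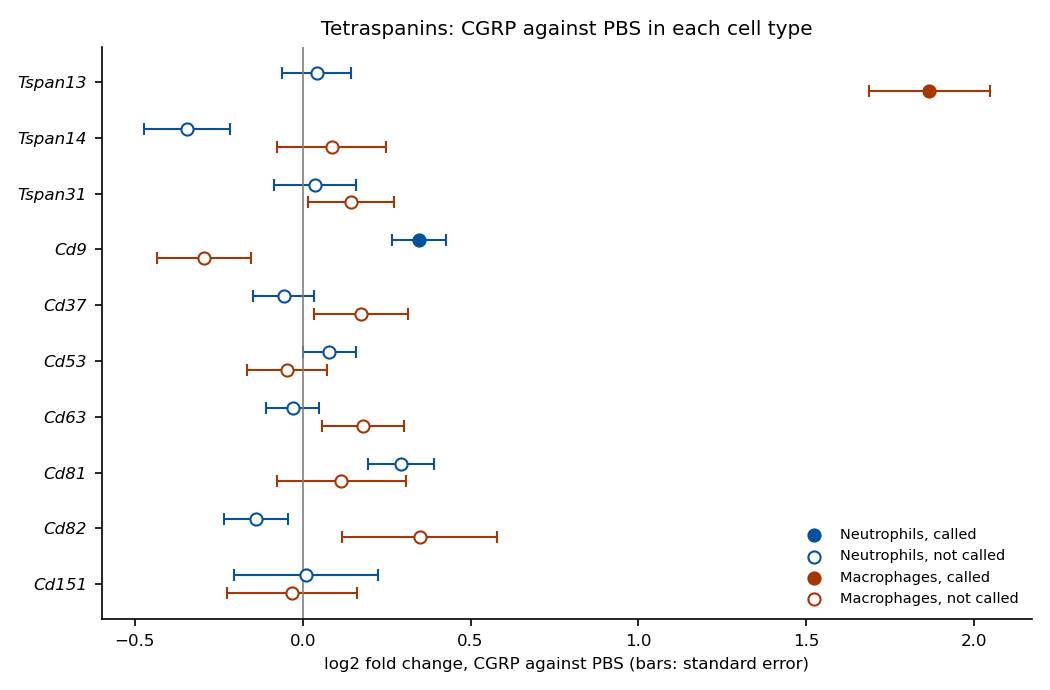
log2 fold change of CGRP against PBS for the 10 tetraspanins (x axis, bars for the SE) in neutrophils (blue) and macrophages (brown), with filled points for genes called in limma-voom. *Tspan13* in macrophages stands at 1.87, far from all other points, and the values of *Cd9* lie on either side of 0 (0.35 in neutrophils and −0.29 in macrophages).

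The CGRP effect was also compared between the cell types in a fit over all 12 libraries, in which 2.36% of the 10694 genes tested were called. For the 10 tetraspanins this too is a description, being built from the responses with which they were chosen. *Tspan13* (1.83, SE 0.20, on the log2 scale, macrophages minus neutrophils) and *Cd9* (−0.63, SE 0.16) were called. *Cd9* was called without neutrophil CGRP replicate 2 (−0.71), macrophage PBS replicate 3 (−0.74) or macrophage CGRP replicate 1 (−0.70) and lost its call without each of the other 9 libraries, where its value ran from −0.66 to −0.52. For the other 8, the difference lay between −0.17 (*Cd81*, SE 0.21) and 0.50 (*Cd82*, SE 0.23). The value of *Cd82* was 0.29 with libraries thinned to the depth of the smallest, and with library totals those of *Cd53* and *Cd63* were −0.24 and 0.099.

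CGRP acts through cyclic AMP, and transcription factors of the CREB family bind the cyclic AMP response element (CRE). The 200 bases from 250 to 51 bases before the RefSeq start of each gene were therefore searched on both strands for the CRE half-site TGACG, the full CRE TGACGTCA, which holds the half-site, the GC box GGGCGG and the CCAAT box CCAAT. These windows were present for all 10 genes, some with several starts, and come from RefSeq on the GRCm38 assembly. Among 32851 such windows, 12.7% held the half-site, 0.828% the full CRE, 24.6% a GC box and 28.4% a CCAAT box. The windows of the 2 called genes are shown because these were the members called with CGRP, and capitals mark the motifs found. The window of *Tspan13* (chr12:36042529-36042728, minus strand) held 1 CCAAT box and neither form of the CRE, and that of *Cd9* (chr6:125494811-125495010, minus strand) held 2 GC boxes and neither form of the CRE.
Tspan13: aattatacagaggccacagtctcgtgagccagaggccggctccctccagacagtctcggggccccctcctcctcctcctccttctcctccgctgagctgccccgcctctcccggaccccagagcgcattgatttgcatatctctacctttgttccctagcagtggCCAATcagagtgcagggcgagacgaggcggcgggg
Cd9: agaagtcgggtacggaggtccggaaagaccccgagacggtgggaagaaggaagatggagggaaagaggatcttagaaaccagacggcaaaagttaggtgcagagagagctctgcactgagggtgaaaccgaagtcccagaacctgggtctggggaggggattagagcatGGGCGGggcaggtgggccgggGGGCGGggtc

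Half-sites were found before *Tspan31* (1) and *Cd63* (2), neither of which was called with CGRP, and before 1 of the starts of *Cd151*, in a window that overlaps its exons. The 41 bases around the first half-site are shown for contrast, with only the half-sites in capitals (*Tspan31*, chr10:127070372-127070412, minus strand; *Cd63*, chr10:128909222-128909262, plus strand). No window of the 10 genes held the full CRE. A match is a description of letters and not of binding, and no match says only that these letters are not in this window.
Tspan31: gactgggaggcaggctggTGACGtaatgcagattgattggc
Cd63: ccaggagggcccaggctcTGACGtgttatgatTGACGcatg

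The genes whose levels followed *Tspan13* most closely over the 12 libraries were *Emb*, which encodes the adhesion protein embigin (Pearson r = 0.991), the growth arrest gene *Btg2* (0.988) and *Osbpl9*, which encodes a lipid transfer protein (0.983). Among those closest to *Cd9* were *Rpl7l1* (0.965) and the ribosome biogenesis gene *Nip7* (0.958). Among the 10 tetraspanins, *Cd37* was closest to *Tspan13* (0.838) and *Cd63* was closest to *Cd9* (0.860). These correlations describe 12 libraries that fall into 2 cell types, which the genes share as a source of difference.

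Among the other tetraspanins, *Tspan3* was called higher with CGRP in macrophages, from 105 ± 10.1 to 152 ± 14.4 CPM (SD, n = 3; log2 fold change 0.53, SE 0.14, limma-voom adjusted p = 0.0294). It was 1 of 6 tested, beside 3.46% of all genes called higher. As this list was also chosen with earlier results of these data known, the call is a description. This call held without PBS replicate 2 (0.59) and was lost without PBS replicate 1 (0.52), PBS replicate 3 (0.47), CGRP replicate 1 (0.47), CGRP replicate 2 (0.61) or CGRP replicate 3 (0.50), and with all libraries thinned to the depth of the smallest (0.48, limma-voom adjusted p = 0.0569). In neutrophils, 0 of 8 were called in limma-voom, in edgeR or in DESeq2, beside 2.53% of all genes tested in limma-voom. At an unadjusted p under 0.05 in limma-voom there were 3 of 8, beside 1257 of all 9819 genes tested. The 3 were *Tspan32* (log2 fold change −0.29, SE 0.10), *Tspan17* (−0.97, SE 0.40) and *Tspan3* (0.48, SE 0.23), named after their values were seen. The median was −0.06 in neutrophils and 0.28 in macrophages.

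Partners of tetraspanins formed the second list, 20 genes for integrins, immunoglobulin-like proteins, membrane proteases and receptors. This list, too, was chosen with earlier results of these data known, so that its counts with CGRP are a description. In PBS, 17 of the 18 tested differed between the cell types, beside 68.5% of all genes tested. Of the 17, 9 were higher in neutrophils and 8 in macrophages, and the list had a median of 0.24. The scavenger receptor gene *Cd36* was 50.4-fold higher in macrophages (log2 fold change −5.66, SE 0.15, limma-voom adjusted p = 5.52e-16), and so was the integrin β1 gene *Itgb1* by 3.79-fold (−1.92, SE 0.15, adjusted p = 1.16e-09). Higher in neutrophils were the integrin αL gene *Itgal* (3.37, SE 0.21, limma-voom adjusted p = 6.51e-11) and the hyaluronan receptor gene *Cd44* (1.63, SE 0.12, adjusted p = 6.15e-10). *Clec7a* and *Hbegf* were among the called genes that lost their call without some libraries. *Clec7a* lost it without any PBS neutrophil library or PBS macrophage replicate 2, with values from −0.34 to −0.15, and *Hbegf* without PBS neutrophil replicate 1 (−1.13) or replicate 3 (−1.11).

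With CGRP, 0 of 18 partners tested in neutrophils and 0 of 17 in macrophages were called in limma-voom, edgeR or DESeq2. Limma-voom called 2.53% and 7.43% of all genes tested, so that a count of 0 in a short list says little. At an unadjusted p under 0.05 there was 1 in neutrophils, *Igsf8*, and 5 in macrophages, *Clec7a*, *Cd44*, *Icam1*, *Itga6* and *Itgam* (named after their values were seen). Among all genes tested in limma-voom, 1257 of 9819 in neutrophils and 1860 of 9393 in macrophages had such a p. The median of the partners was 0.04 in neutrophils and 0.11 in macrophages.

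Antigen presentation genes, whose class II products gather in tetraspanin patches, formed the next list, chosen with earlier results of these data known. All 7 had positive log2 fold changes with CGRP in macrophages under every scaling tried, with a median of 0.46. In limma-voom 4 of 7 were called, beside 7.43% of all genes tested called in either direction and 3.46% called higher. Given that choice, the count and the calls that follow are a description, and the lists were not tested against each other. *H2-Eb1* rose by 0.63 on the log2 scale (SE 0.15, limma-voom adjusted p = 0.0133), the co-stimulatory gene *Cd86* by 0.71 (SE 0.16, adjusted p = 0.0136), *H2-Aa* by 0.55 (SE 0.13, adjusted p = 0.0161) and *H2-Ab1* by 0.46 (SE 0.13, adjusted p = 0.0347). *H2-Eb1*, for example, went from 658 ± 56.2 to 1031 ± 198 CPM (SD, n = 3).

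These calls did not hold in every fit without 1 library, and why they were lost was not tested. Without PBS replicate 1, PBS replicate 3, CGRP replicate 2 or CGRP replicate 3, the genes called over the whole fit were 347, 744, 348 and 439, in place of 698. *H2-Eb1* and *H2-Aa* lost theirs without PBS replicate 1 (0.58 and 0.54), CGRP replicate 2 (0.57 and 0.53) or CGRP replicate 3 (0.54 and 0.45), *H2-Ab1* without these (0.46, 0.51 and 0.40) or PBS replicate 3 (0.39), and *Cd86* without PBS replicate 1 (0.64). Dendritic cell markers, whose cells carry much class II, summed to 15.7, 16.7 and 15.4 CPM in the PBS macrophages and 20.6, 28.0 and 31.1 CPM in the CGRP macrophages, most of it *Ccr7*, with *Xcr1* at 0. Both that could be tested, *Ccr7* and *Cd209a*, had positive log2 fold changes (0.61 and 1.21) with an unadjusted p under 0.05, 0 called in limma-voom, edgeR or DESeq2 and 1 with voomWithQualityWeights, and their part in these values was not tested. Such a p was found in limma-voom for 1860 of all 9393 genes tested in macrophages. In neutrophils, 0 of 7 antigen presentation genes were called in limma-voom, edgeR or DESeq2, beside 2.53% of all genes tested in limma-voom. An unadjusted p under 0.05 was found for 2, beside 1257 of all 9819 genes tested. The 2 were *Cd86* (0.51, SE 0.15) and *H2-Ab1* (0.21, SE 0.09), named after their values were seen. The median of the list in neutrophils was 0.14. At rest, all 7 had higher levels in macrophages and 6 were called, beside 33.0% of all genes tested called higher there. *H2-Aa* was higher by 14.3-fold (log2 fold change −3.84, SE 0.11, limma-voom adjusted p = 1.34e-15).

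Genes of multivesicular bodies and exosomes, the compartment of *Cd63*, were a further list chosen with earlier results of these data known. Their counts and calls with CGRP are therefore a description, in which an adjusted p marks a place in the fit over all genes. With CGRP, 10 of 17 tested had positive log2 fold changes in neutrophils and 7 of 17 in macrophages (limma-voom). *Rab31*, which encodes a GTPase of endosomal sorting, fell in both cell types, from 186 ± 7.00 to 133 ± 9.67 CPM in neutrophils (log2 fold change −0.48, SE 0.09, limma-voom adjusted p = 4.03e-03) and from 181 ± 13.5 to 123 ± 15.0 CPM in macrophages (−0.57, SE 0.14, adjusted p = 0.0185; SD, n = 3). In neutrophils *Rab31* was the 1 gene called of 17, beside 2.53% of all genes tested, and its call held without each library. In macrophages 3 of 17 were called, beside 7.43% of all genes tested. *Smpd3*, which encodes a neutral sphingomyelinase, fell by 0.97 on the log2 scale (SE 0.21, limma-voom adjusted p = 8.46e-03), from 160, 163 and 192 counts to 69, 84 and 61, and held without each library. *Sdc4*, which encodes the proteoglycan syndecan-4, fell by 0.69 (SE 0.17, limma-voom adjusted p = 0.0181).

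The *Sdc4* call was lost without CGRP replicate 3 (−0.63), and that of *Rab31* in macrophages without PBS replicate 1 (−0.62), CGRP replicate 1 (−0.47) or CGRP replicate 2 (−0.60). The median of this list was 0.10 in neutrophils and 0.00 in macrophages. In PBS, 12 of 18 genes differed, 4 higher in neutrophils and 8 in macrophages, beside 68.5% of all genes tested. *Rab27a*, whose product docks granules and exosomes, was higher in neutrophils (130 ± 11.8 against 2.06 ± 1.36 CPM, SD, n = 3; log2 fold change 6.20, SE 0.43, limma-voom adjusted p = 3.46e-10). It had 2, 8 and 9 counts in the PBS macrophages, the lowest under the floor of 3, so the size of this fold is uncertain. *Sdcbp*, *Sdc4* and *Smpd3* were higher in macrophages. *Smpd3* had 1, 1 and 0 counts in the PBS neutrophils, too few for a fold change. *Sdcbp* was 2.71-fold and *Sdc4* 7.10-fold higher in macrophages (adjusted p = 5.29e-10 and 1.86e-09 in limma-voom). In this list, the calls of *Rab35* and *Stam* were lost without some libraries, *Rab35* in 4 cases (0.40 to 0.61) and *Stam* without PBS neutrophil replicate 2 (−0.71).

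Late endosome and lysosome membrane genes, whose products share a compartment with CD63, were, like *Cd63*, mostly higher in macrophages. In PBS, 9 of 11 were called higher in macrophages and none was called higher in neutrophils, with a median of −1.21. Among all genes tested, 33.0% were called higher in macrophages. The lysosome membrane gene *Lamp1* was 4.95-fold higher (adjusted p = 1.34e-12 in limma-voom), the cholesterol carrier gene *Npc2* 3.16-fold (adjusted p = 1.31e-10), *Laptm4a* 2.31-fold (adjusted p = 3.19e-08) and *Tmem192* 3.63-fold (adjusted p = 4.06e-08). With CGRP, 0 of 11 were called in either cell type in limma-voom, edgeR or DESeq2. Beside this, limma-voom called 2.53% of all genes tested in neutrophils and 7.43% in macrophages. This list was also chosen with earlier results of these data known, so that its counts with CGRP are a description. At an unadjusted p under 0.05 there were *Lamp2* in neutrophils and *Laptm5* and *Ap3d1* in macrophages, named after their values were seen. The same level was passed by 1257 of all 9819 genes tested in neutrophils and 1860 of 9393 in macrophages. The median of the 11 was −0.08 in neutrophils and 0.11 in macrophages. In the fit of the difference between the cell types, 0 genes of the 5 lists were called in limma-voom, edgeR or DESeq2. Limma-voom called 2.36% of all genes tested there. In limma-voom, 2 of 9 other tetraspanins, 4 of 19 partners, 1 of 7 antigen presentation genes, 3 of 18 multivesicular body genes and 1 of 11 late endosome genes had an unadjusted p under 0.05. So did 1416 of all 10694 genes tested in that fit. With voomWithQualityWeights, 1 partner was called, and all 7 antigen presentation genes had positive differences (0.22 to 0.43 in limma-voom, macrophages minus neutrophils).

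**Figure D4:**
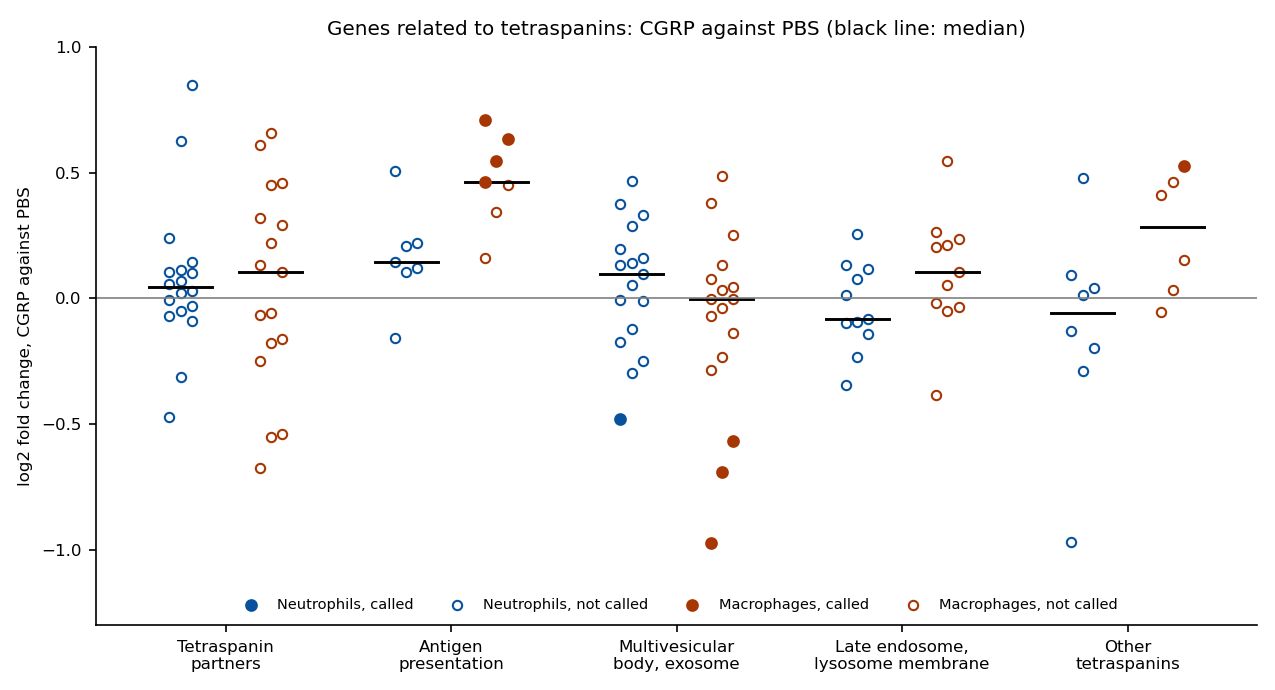
log2 fold change of CGRP against PBS (y axis) for the genes of 5 lists in neutrophils (blue) and macrophages (brown), with filled points for genes called in limma-voom and a black line for the median of each list. The called antigen presentation genes of macrophages lie above 0 (0.46 to 0.71) and the called genes of multivesicular bodies lie below 0 (−0.97 to −0.48).

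Tetraspanins are abundant in several other blood cells, platelets and B cells among them, so transcripts of such cells were measured in the same libraries. Of 76 genes in 10 marker lists, 55 could be tested in neutrophils and 35 in macrophages, where 0 of 8 T and NK cell markers could be. With CGRP, 0 were called in either cell type in limma-voom, edgeR or DESeq2. Among all genes tested, limma-voom called 2.53% in neutrophils and 7.43% in macrophages. At an unadjusted p under 0.05 in limma-voom there were 5 and 9 markers, beside 1257 of all 9819 and 1860 of all 9393 genes tested. For platelets and megakaryocytes, in which CD9 is abundant, 4 of 10 markers could be tested in neutrophils. Their summed level was 170, 171 and 168 CPM in the PBS neutrophils and 196, 130 and 196 CPM in the CGRP neutrophils. Most of it was *Pf4* (142 ± 1.12 and 143 ± 31.1 CPM, SD, n = 3), and the defining marker *Gp1ba* was at 0 counts in both groups and *Gp6* in the CGRP group. Among the CGRP neutrophils, replicates 1 and 3 had both the higher *Cd9* levels and the higher platelet sums, and the part of platelet RNA in the *Cd9* level was not tested.

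B cell markers, 8 of 8 detected in neutrophils, summed to 713, 716 and 750 CPM with PBS and 668, 643 and 647 CPM with CGRP, mostly *Ighm* (610 ± 13.8 and 531 ± 9.45 CPM, SD, n = 3). Of the 7 tested, 3 had positive and 4 negative log2 fold changes with CGRP (median −0.02), and the part of B cell RNA in the *Cd81* level was not tested. Mean sums in PBS neutrophils were 6500 CPM for 6 erythroid markers, led by *Hbb-bs*, 1096 CPM for 6 basophil and mast cell markers, led by *Prss34*, and 597 CPM for 5 eosinophil markers, led by *Prg2*. In CGRP neutrophils they were 6339, 1060 and 587 CPM. Macrophage markers summed to 696 and 687 CPM, T and NK cell markers to 124 and 102 CPM, stromal markers to 83.6 and 81.9 CPM and dendritic cell markers to 25.9 and 26.6 CPM in the PBS and CGRP neutrophils. Neutrophil markers themselves summed to 192542 and 171249 CPM, and 7 of 10 had negative log2 fold changes with CGRP (median −0.13), none called in limma-voom and 1 with library totals, the replicate block or voomWithQualityWeights. What these cells add to the tetraspanin levels of the neutrophil libraries was not tested.

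In the macrophage libraries, macrophage markers summed to 11266 ± 290 CPM with PBS and 12702 ± 936 CPM with CGRP (SD, n = 3), led by *C1qb*. All 10 had positive log2 fold changes with CGRP, none called in limma-voom and 3 with voomWithQualityWeights, and the sums were 11004, 11215 and 11578 CPM with PBS and 11677, 12917 and 13511 CPM with CGRP. Neutrophil markers summed to 332, 392 and 299.9 CPM with PBS and 441, 417 and 413 CPM with CGRP, far below the 192542 CPM of PBS neutrophils. All 8 of them that were tested had positive log2 fold changes (median 0.38), none called in limma-voom and 1 called with the replicate block or with voomWithQualityWeights, and their part in the *Tspan13* level, which is high in neutrophils, was not tested. B cell markers summed to 148 and 134 CPM with 4 of 8 at 0, *Cd79a*, *Ms4a1* and *Pax5* among them. The platelet list summed to 762 and 792 CPM, nearly all of it *Pf4*, with 5 of 10 markers at 0 in the PBS group (*Gp9*, *Gp1bb*, *Gp1ba*, *Gp5* and *Gp6*). The erythroid (21.5 and 23.3 CPM), basophil and mast cell (14.1 and 15.8 CPM), eosinophil (11.01 and 8.02 CPM), T and NK cell (0.804 and 0.933 CPM) and stromal lists (47.8 and 59.9 CPM) had lower sums. The share of mitochondrial counts was between 1.23% and 1.57% in all 12 libraries.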

How the data were processed

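Raw, unnormalized counts per gene were deposited by the authors, in 1 table per cell type. The authors processed the reads with the nf-core/rnaseq pipeline (v3.2) with unique molecular identifiers, with STAR as the aligner on GRCm38 and featureCounts for counting. The annotation release and strand setting are not given in the sources used here. Priming was from poly-A, which places reads near the 3′ end.

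Genes were kept by filterByExpr, scaled by TMM and compared by limma-voom (two-sided, Benjamini–Hochberg over all genes tested), on the 6 libraries of each cell type, the 6 PBS libraries, or all 12 with an interaction. Printed levels use TMM factors of all 12 libraries. Alternatives were other tests (DESeq2, edgeR's quasi-likelihood test), size factors of DESeq2, library totals, 2 other filters, voomWithQualityWeights, the replicate number as a block, thinning, a single fit, a fold of 1.5 and leaving out each library. Steps were tested on simulated data. No libraries were identical, and no column was left unmapped.

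The members and the gene lists were chosen with earlier results of these data known. Named are all members, every called gene of the other tetraspanins, and up to 4 called genes of each further list with the smallest adjusted p. Some items are not reported here. Genes and overlaps came from GENCODE M21 (52489 identifiers matched). R 4.3.3, limma 3.58.1, edgeR 4.0.16, DESeq2 1.42.0 and Python 3.11.15 were used.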

Additional observations from a re-analysis of the deposited data

Results flagged for a closer look

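For 2 of the 10 tetraspanins, the macrophage and neutrophil responses to CGRP stood apart in the fit over all genes, which is a description, since both genes had been chosen with these responses known. For *Tspan13*, the log2 fold change of CGRP against PBS was larger in macrophages than in neutrophils by 1.83 (SE 0.20), with 1.87 in macrophages and 0.04 in neutrophils. For *Cd9*, it was smaller in macrophages by −0.63 (SE 0.16), with −0.29 in macrophages and 0.35 in neutrophils. Both were called by the interaction term in limma-voom, beside 2.36% of the genes tested. The *Cd9* call was lost without each of 9 of the 12 libraries, where the value ran from −0.66 to −0.52.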

How the results depend on the processing

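Under the alternatives, the 9 members called between resting cell types kept direction and call. The exceptions follow, and their cause was not tested. *Cd53* between cell types reversed to −0.077 with library totals, within its error, and in the interaction *Cd82*, *Cd53* and *Cd63* moved as given above. In neutrophils, a single fit over 12 libraries gave 137 genes and 0 members, and a fold over 1.5 gave 151 and 0, in place of 248 and 1. In macrophages, voomWithQualityWeights gave 1406 genes and 2 members (*Cd9* as well) and the single fit 1050, in place of 698 and 1. In the interaction, voomWithQualityWeights gave 520 genes in place of 252. Without one library each, the counts ran from 138 to 234 in neutrophils (members 0 to 1), from 347 to 765 in macrophages (members 1 to 1), from 6547 to 7265 between cell types (members 9 to 9) and from 149 to 328 in the interaction (members 1 to 2). Where this left 1 arm with 2 libraries, the spread was pooled over the fit. With library totals, 70.1% of the calls in neutrophils were higher with CGRP in place of 59.7%, and 36.4% of those in the interaction were positive in place of 51.2%, where the median of all genes moved by −0.12. Same-numbered libraries had correlated deviations of −0.03 to 0.11 in neutrophils and −0.17 to 0.22 in macrophages. Across the cell types in PBS they were 0.097 to 0.20, against −0.15 to −0.0076 for different numbers, so that each library was closest to its own number there. With CGRP, across the cell types, they were 0.037 to 0.11 for the same number and −0.099 to 0.026 for different numbers. As the labels give no pairing and not every pair exceeded 0.1, the numbers were not taken to pair libraries. What libraries of the same number share is not given, and a shared source or batch cannot be told from these values. Adding a replicate block, 266 genes were called in neutrophils, 915 in macrophages, 7248 between cell types and 346 in the interaction, with 1, 1, 9 and 2 members. In macrophages the block also called 2 partners and 1 late endosome gene, and voomWithQualityWeights 4 and 2, in place of 0 and 0. Depth limits *Cd151*, with at least 40 counts, and the untested family members, with at most 4.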
